A study of Mus musculus with 6 samples.

Results

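The mitochondrially encoded transcripts are the RNAs made from the mitochondrion's own small circular chromosome, and they were taken here as every gene whose mouse symbol begins with mt-. The annotation (GENCODE M21, build GRCm38) lists 37 such genes, namely 13 protein genes, 2 rRNA genes and 22 tRNA genes. Of these, 16 were among the 27815 genes of the deposited tables: all 13 protein genes, both rRNA genes and a single tRNA gene, mt-Tp. The other 21, all tRNA genes, were not analysed here. All 16 passed the filter on low values (at least 1 FPKM in at least 2 libraries), as did 14074 genes in total. FPKM counts reads relative to exon length and library depth, so it compares levels between genes per length.

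The study compared aortas with calcification of the atherosclerotic plaque, or of the muscular media, with normal aortas, and all mice are labelled C57BL/6. The Ctrl libraries came from wild-type mice of 2 months on no stated treatment. The ApoE libraries came from mice without apolipoprotein E (ApoE-/-), which carries lipoprotein particles to their receptors, held on chow until 16 months of age. The CKD (chronic kidney disease) libraries came from mice whose kidney tissue was removed in stages, starting at 8 weeks of age with 1 week of recovery, followed by 4 weeks of 2% dietary phosphate and 0.45% NaCl in the drinking water. Their age label reads 16 months, which does not match that course, so their age is uncertain. Genotype and age differ together between ApoE and Ctrl and cannot be told apart. Each group had 2 libraries of RNA captured on poly-T beads, with 14.44 to 16.64 M reads recovered from the values. Nothing in the labels ties a library to a single animal, and the protocol describes pooling for another assay, so p-values measure only the spread between these libraries. In bulk tissue, fewer cells of a type and less RNA per cell cannot be told apart.

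The mitochondrial chromosome is transcribed from both strands into long precursors, and the mRNAs and rRNAs are released where tRNAs are cut out between them. Its mRNAs encode core subunits of the respiratory chain and of ATP synthase, and the nucleus encodes the remaining subunits and everything that copies, transcribes and translates the chromosome. Stretches of mitochondrial DNA have also been inserted into nuclear chromosomes during evolution, and such copies can carry nearly the same sequence as the mitochondrial genes they came from. Tissues rich in mitochondria, such as heart and brown fat, hold more of these transcripts than arterial smooth muscle does.

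Sequences are shown where they set how a value can be read, all from the GENCODE M21 transcripts (GRCm38). Several mitochondrial genes stop at a bare T, and the poly(A) tail completes the stop codon. The final T, which lies past the last whole codon, is in capitals at the ends of mt-Co3 (chrM:9361-9390), mt-Nd4 (chrM:11515-11544) and mt-Cytb (chrM:15259-15288), all on the plus strand.
mt-Co3 end: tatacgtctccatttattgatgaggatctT
mt-Nd4 end: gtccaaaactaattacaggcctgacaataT
mt-Cytb end: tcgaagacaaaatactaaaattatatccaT
The tRNA gene, mt-Tp (chrM:15356-15422, minus strand), reads the proline codons through the anticodon in capitals.
mt-Tp: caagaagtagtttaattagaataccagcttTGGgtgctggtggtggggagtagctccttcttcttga
mt-Atp8 (chrM:7766-7969, plus strand) shares its last 43 bases, in capitals, with the start of mt-Atp6, so reads there belong to both genes.
mt-Atp8: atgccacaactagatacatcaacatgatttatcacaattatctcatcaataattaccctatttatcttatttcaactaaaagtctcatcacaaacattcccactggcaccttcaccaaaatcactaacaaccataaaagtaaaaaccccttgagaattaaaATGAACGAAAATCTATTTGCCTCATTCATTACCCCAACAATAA

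A nuclear copy of the stretch from mt-Co1 to mt-Nd4 lies on chromosome 1. It is annotated as 7 adjacent pseudogenes between 24611535 and 24616197, a span of 4663 bases, with 7 mismatches in 4149 aligned bases. The copies of mt-Co2 (Gm28661), mt-Atp6 (Gm10925), mt-Co3 (Gm28437), mt-Nd4l (Gm10222) and mt-Nd4 (Gm28439, over 63.6% of the gene) had no mismatch. The first 60 bases of mt-Co3 (chrM:8607-8666, plus strand) are thus also those of Gm28437.
mt-Co3 start: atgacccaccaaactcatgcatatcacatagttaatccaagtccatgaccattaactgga
The copy of mt-Nd3, Gm28438, differs from the mitochondrial gene in 1 base, T3C, counted from the first base of the gene and set in capitals in both. The windows shown are chrM:9459-9518 and, for the copy, chr1:24613060-24613119 (minus strand).
mt-Nd3 window: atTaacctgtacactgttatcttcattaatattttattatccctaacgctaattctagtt
Gm28438 window: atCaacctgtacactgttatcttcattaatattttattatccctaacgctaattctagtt
The copy of the last 31.8% of mt-Co1, Gm29216, differs from the mitochondrial gene by 6 bases near its edge and by none beyond it. These are T1056A, C1057T, A1059G, A1060G, C1062A and A1066T, in capitals below. The windows shown are chrM:6381-6440 and, for the copy, chr1:24616138-24616197 (minus strand).
mt-Co1 window: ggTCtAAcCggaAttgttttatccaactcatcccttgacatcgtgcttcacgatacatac
Gm29216 window: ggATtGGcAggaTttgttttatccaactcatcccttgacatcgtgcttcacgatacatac

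The 16 genes took 3.36% and 4.49% of all reads in Ctrl, 10.4% and 11.8% in ApoE, and 10.7% and 6.12% in CKD. Both ApoE libraries lay above both Ctrl libraries, by 7.18 percentage points on average, and the 2 CKD libraries differed from each other by more than either Ctrl library differed from the lower of them. Wilson 95% intervals were at most 0.0164 points to either side and cover counting error only. With 2 libraries a group the exact two-sided permutation test cannot go below p = 0.333, which was its value for ApoE versus Ctrl and for CKD versus Ctrl. For ApoE versus CKD the exact permutation test gave p = 0.667. Protein genes held 96.2% to 97.2% of the members' reads, the rRNA genes 2.60% to 3.73% and mt-Tp 0.117% to 0.191%. mt-Co1 was the most abundant gene of the library by FPKM in 5 libraries and the next in Ctrl 2.

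In ApoE aorta, transcripts of nearly the whole mitochondrial chromosome were higher than in Ctrl. On limma's test with Benjamini-Hochberg adjustment, 14 of 16 genes rose (adjusted p below 0.05) and none fell. Among all genes tested 19.8% were called higher and 24.3% lower in this comparison. The median log2 fold change of the protein genes was 1.54, beside -0.07 for all genes. The 2 genes that were not called were mt-Rnr2 and mt-Atp8. In 15 of 16 genes both ApoE libraries lay above both Ctrl libraries, as in 36.4% of all genes tested, with 43.0% of all genes the other way. No call held throughout when a library was left out, except that of mt-Nd3: the count was 1 without Ctrl 1 or without ApoE 2, 4 without Ctrl 2 or without ApoE 1, and 15 without either CKD library.

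In CKD aorta, no mitochondrial gene was called against Ctrl by limma, although most lay higher. Of the 16 genes, 12 had both CKD libraries above both Ctrl libraries, 1 (mt-Atp8) had both below, and 3 overlapped. Over all genes tested the same was so of 29.1% (both above) and 35.1% (both below). Of all genes tested, 2.23% were called higher and 3.21% lower. At an unadjusted p below 0.05 there were 10 higher genes and 1 lower gene, mt-Atp8, which makes 11 of 16, beside 29.96% of all genes in either direction. The median log2 fold change of the protein genes was 0.96, beside -0.03 for all genes. CKD 1 lay above CKD 2 for all protein genes but mt-Nd4l. Without CKD 2 there were 12 calls, and 0 without any other library.

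**Figure D1:**
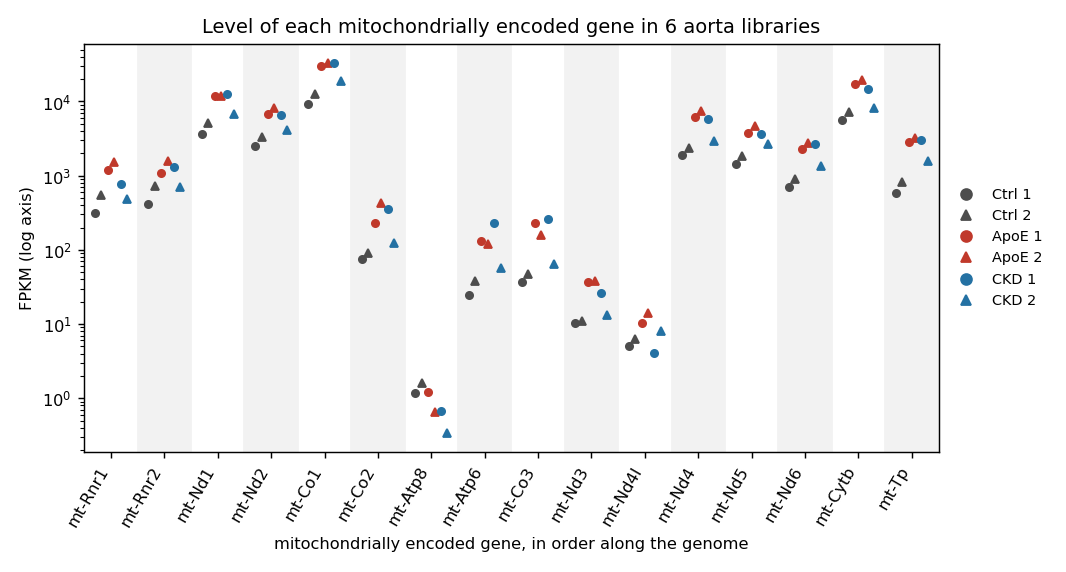
FPKM of each of the 16 genes (log axis) in the 6 libraries, in order along the mitochondrial chromosome. Colours are groups (grey Ctrl, red ApoE, blue CKD) and symbols the library number. The Ctrl points lie lowest for most genes, CKD 2 lies near them, and mt-Atp8 stands at 0.339 to 1.62 FPKM.

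Between ApoE and CKD, 1 of 16 genes was called, mt-Nd3, which was higher in ApoE. The background in this comparison was 18.5% of genes called higher and 21.2% lower. The median log2 fold change of the protein genes was 0.52, and 7 of 16 genes had both ApoE libraries above both CKD libraries, beside 33.0% of all genes above and 38.0% below. The other 9 overlapped. The call of mt-Nd3 and the direction of other genes depended on single libraries: 8 genes were called without CKD 1, 2 without CKD 2, and 0 without any other library. Without CKD 2, 8 genes had the opposite sign. The comparisons share libraries pairwise, so their values are not independent of each other.

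Complex I passes electrons from NADH to ubiquinone, and 7 of its subunits, the ND proteins, are mitochondrially encoded. mt-Nd1 (chrM:2751-3707) forms part of the ubiquinone site. It stood at 3673 and 5103 FPKM in Ctrl, 12024 and 12036 in ApoE, and 12743 and 6817 in CKD. The ApoE libraries lay together and above Ctrl, while CKD spanned them. Its log2 fold change in ApoE versus Ctrl was 1.47 ± 0.37 (limma SE, adjusted p = 0.0226), and in CKD versus Ctrl 1.11 ± 0.37 (adjusted p = 0.116).

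mt-Nd2 (chrM:3914-4951), mt-Nd4 (chrM:10167-11544) and mt-Nd5 (chrM:11742-13565) encode proton-pumping subunits of the membrane arm. mt-Nd2 stood at 2473 and 3334 FPKM in Ctrl, 6858 and 8135 in ApoE, and 6538 and 4142 in CKD. mt-Nd4 stood at 1906 and 2387 FPKM in Ctrl, 6259 and 7405 in ApoE, and 5718 and 2961 in CKD. mt-Nd5 stood at 1419 and 1840 FPKM in Ctrl, 3798 and 4619 in ApoE, and 3666 and 2706 in CKD. For all 3 genes the groups did not overlap, with Ctrl lowest and ApoE highest. Their log2 fold changes in ApoE versus Ctrl were 1.38 ± 0.32 for mt-Nd2 (adjusted p = 0.0169), 1.67 ± 0.36 for mt-Nd4 (adjusted p = 0.0142) and 1.37 ± 0.27 for mt-Nd5 (adjusted p = 0.0101). Against Ctrl the CKD values were 0.86, 0.95 and 0.96, with adjusted p of 0.140, 0.1502 and 0.0861.

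mt-Nd3 (chrM:9459-9806) and mt-Nd4l (chrM:9877-10173) are small subunits of the same arm and were among the lowest members. Both have a nuclear copy with at most 1 mismatch, so their levels depend on how shared reads were counted, which is not given. Of the reads of mt-Nd3 and its copy Gm28438 together, mt-Nd3 held 43.3% to 53.2%. Gm28438 itself was not called by limma in ApoE versus CKD (adjusted p = 0.0584). mt-Nd3 stood at 10.4 and 11.01 FPKM in Ctrl, 37.1 and 38.1 in ApoE, and 25.8 and 13.3 in CKD, from 58 to 206 reads a library. The 3 groups did not overlap, and the pairs of Ctrl and of ApoE libraries were close. It rose in ApoE by a log2 fold change of 1.72 ± 0.29 against Ctrl (adjusted p = 0.00588) and of 0.98 ± 0.29 against CKD (adjusted p = 0.0410), while CKD versus Ctrl gave 0.75 (adjusted p = 0.152). Its call against Ctrl held in all 6 fits that left out a library (adjusted p up to 0.0458), and its call against CKD in 2 of 6. mt-Nd4l stood at 5.06 and 6.23 FPKM in Ctrl, 10.4 and 14.0 in ApoE, and 4.10 and 8.16 in CKD, from 18 to 62 reads. CKD spanned Ctrl for this gene, with a log2 fold change of 0.05 ± 0.30, and ApoE lay above both at 0.98 ± 0.30 over Ctrl (adjusted p = 0.0434).

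mt-Nd6 (chrM:13552-14070) is the protein gene encoded on the other strand, and shares 14 bases with mt-Nd5. It stood at 712 and 898 FPKM in Ctrl, 2318 and 2736 in ApoE, and 2660 and 1340 in CKD. Both other groups lay above Ctrl, and CKD 1 lay within the ApoE range. The log2 fold change was 1.65 ± 0.36 in ApoE versus Ctrl (adjusted p = 0.0148) and 1.24 ± 0.36 in CKD versus Ctrl (adjusted p = 0.0933). Since the library kit marked no strand, mt-Nd6 and any RNA from the strand opposite it cannot be told apart.

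Complex III passes electrons on to cytochrome c, and its mitochondrial subunit is cytochrome b, from mt-Cytb (chrM:14145-15288). mt-Cytb stood at 5590 and 7283 FPKM in Ctrl, 16950 and 19238 in ApoE, and 14552 and 8209 in CKD. It was the member next in level to mt-Co1 in every library, and its 3 groups did not overlap. It rose in ApoE by a log2 fold change of 1.50 ± 0.35 (adjusted p = 0.0181), while CKD versus Ctrl gave 0.78 ± 0.35 (adjusted p = 0.201).

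Complex IV reduces oxygen to water, and its catalytic core is built from mt-Co1, mt-Co2 and mt-Co3. mt-Co1 (chrM:5328-6872) stood at 9342 and 12486 FPKM in Ctrl, 29652 and 33305 in ApoE, and 33533 and 19042 in CKD. Ctrl lay lowest, and CKD 1 lay level with the higher ApoE library. Its log2 fold change was 1.54 ± 0.36 in ApoE versus Ctrl (adjusted p = 0.0184) and 1.23 ± 0.36 in CKD versus Ctrl (adjusted p = 0.0947). mt-Co2 (chrM:7013-7696) stood at 74.5 and 91.8 FPKM in Ctrl, 229 and 429 in ApoE, and 353 and 123 in CKD. mt-Co3 (chrM:8607-9390) stood at 36.8 and 47.4 FPKM in Ctrl, 231 and 159 in ApoE, and 263 and 64.6 in CKD. In both genes the CKD libraries enclosed at least 1 ApoE library and lay above Ctrl. Their log2 fold changes in ApoE versus Ctrl were 1.91 ± 0.54 for mt-Co2 (adjusted p = 0.0339) and 2.17 ± 0.63 for mt-Co3 (adjusted p = 0.0365), with larger standard errors than mt-Co1. The CKD values against Ctrl were 1.32 ± 0.54 and 1.62 ± 0.63, with adjusted p of 0.169 and 0.155.

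Complex V, the ATP synthase, takes 2 mitochondrial subunits, which form and steady its proton channel. mt-Atp6 (chrM:7927-8607) stood at 24.7 and 37.5 FPKM in Ctrl, 130 and 120 in ApoE, and 234 and 57.6 in CKD. The ApoE libraries lay between the 2 CKD libraries, and Ctrl below all of them. Its log2 fold change was 2.00 ± 0.62 in ApoE versus Ctrl (adjusted p = 0.0449) and 1.90 ± 0.62 in CKD versus Ctrl (adjusted p = 0.113). mt-Atp8 stood at 1.18 and 1.62 FPKM in Ctrl, 1.23 and 0.659 in ApoE, and 0.663 and 0.339 in CKD, which is 4, 5, 4, 2, 2 and 1 reads. It was the member lowest in level in every library and the sole member with a negative fold change. The log2 fold change was -0.31 ± 0.22 in ApoE versus Ctrl (adjusted p = 0.299) and -0.68 ± 0.22 in CKD versus Ctrl (adjusted p = 0.114). As reads per depth, CKD stood at 0.362 of Ctrl with an exact 95% interval of 0.0631 to 1.45. ApoE stood at 0.688 with 0.201 to 2.16, so no difference was detectable from so few reads.

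The 2 rRNAs form the mitochondrial ribosome's small and large subunits. mt-Rnr1 (chrM:70-1024), of the small subunit, stood at 311 and 550 FPKM in Ctrl, 1181 and 1540 in ApoE, and 769 and 491 in CKD. mt-Rnr2 (chrM:1094-2675), of the large subunit, stood at 412 and 727 FPKM in Ctrl, 1077 and 1569 in ApoE, and 1328 and 711 in CKD. Both were high in ApoE, and CKD overlapped Ctrl in both. mt-Rnr1 rose in ApoE by a log2 fold change of 1.70 ± 0.37 (adjusted p = 0.0139), and mt-Rnr2 gave 1.25 ± 0.43 (adjusted p = 0.0583). CKD against Ctrl gave 0.57 and 0.83, with adjusted p of 0.338 and 0.247. The libraries were selected for poly(A), so rRNA levels are those of the RNA that bound the beads.

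mt-Tp stood at 588 and 812 FPKM in Ctrl, 2828 and 3217 in ApoE, and 3057 and 1582 in CKD, from 656 to 3204 reads. Ctrl lay lowest, and CKD 1 lay between the ApoE libraries. Its log2 fold change was 2.12 ± 0.36 in ApoE versus Ctrl (adjusted p = 0.00649), and in CKD versus Ctrl 1.67 ± 0.36, whose adjusted p of 0.0568 was the lowest of the members there. The gene is 67 bases long, so its value per kilobase rests on few positions, and strand was not marked.

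**Figure D2:**
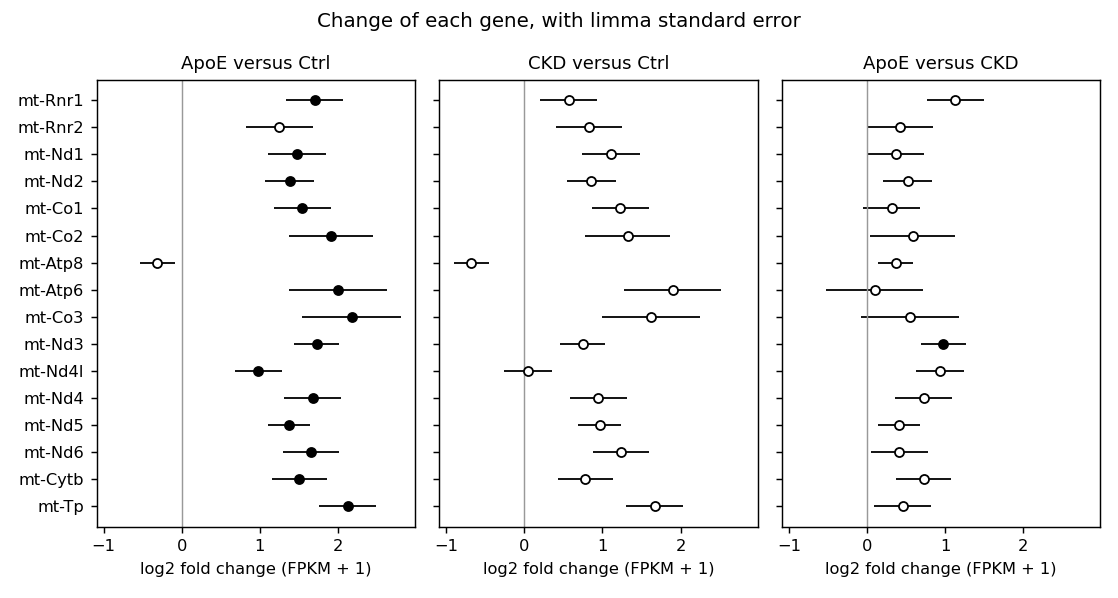
Log2 fold change of FPKM + 1 for each gene in the 3 comparisons, with limma's standard error as bars and filled points where the adjusted p was below 0.05. In ApoE versus Ctrl 14 points are filled, in CKD versus Ctrl none, and in ApoE versus CKD mt-Nd3 alone.

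The make-up of the mitochondrial reads does not depend on the scaling between libraries. mt-Co1, mt-Cytb and mt-Nd1 together held 71.9% to 75.3% of the members' reads. In CKD the make-up was shifted towards mt-Co1 and away from mt-Cytb. mt-Co1 held 43.0% and 42.9% in Ctrl, 44.0% and 43.5% in ApoE, and 48.4% and 48.1% in CKD. mt-Cytb held 19.0% and 18.5% in Ctrl, 18.6% and 18.6% in ApoE, and 15.6% and 15.3% in CKD. The FPKM of mt-Co1 over that of mt-Cytb was 1.67 and 1.71 in Ctrl, 1.75 and 1.73 in ApoE, and 2.30 and 2.32 in CKD. The 2 CKD libraries were alike in this ratio although their mitochondrial shares differed, and they stood apart from the other 4. This pair was singled out after the levels were seen, and its ratio was given no test.

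Other ratios moved in other groups. The FPKM of mt-Rnr1 over that of mt-Rnr2 was 0.755 and 0.757 in Ctrl, 1.10 and 0.981 in ApoE, and 0.579 and 0.691 in CKD, with ApoE highest and CKD lowest. The FPKM of mt-Nd6 over that of mt-Nd5 was 0.502 and 0.488 in Ctrl, 0.610 and 0.592 in ApoE, and 0.725 and 0.495 in CKD, so that CKD spanned the others. mt-Tp held 0.117% and 0.121% of the members' reads in Ctrl, 0.182% and 0.182% in ApoE, and 0.191% and 0.173% in CKD, lowest in Ctrl. The shares of mt-Nd1 and mt-Nd2 varied least of the remaining genes, by 1.17 and 1.21 times from lowest to highest.

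**Figure D3:**
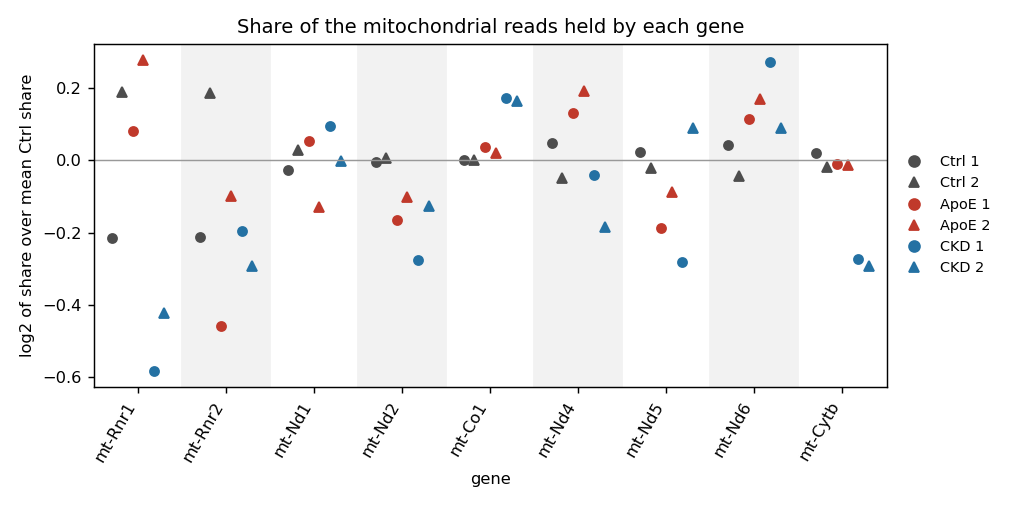
Each gene's share of the members' reads in a library, as log2 of its ratio to the mean Ctrl share, for the 9 genes with at least 1% of those reads in some library. Both CKD points lie above the others for mt-Co1 and below them for mt-Cytb and mt-Rnr1.

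Levels differed far more between genes than between groups, and 5 of the 6 lowest protein genes were those repeated almost whole in a nuclear transcript. Windows of 50 bases that occur unchanged in a nuclear transcript made up 100% of mt-Co2, 99.5% of mt-Atp6, 99.9% of mt-Co3, 98.0% of mt-Nd3 and 98.8% of mt-Nd4l. These 5 genes stood at 4.10 to 429 FPKM and together held 0.292% to 0.577% of the members' reads. mt-Nd4 shared 62.2% of its windows and mt-Co1 51.1%. For mt-Nd2 the share was 8.19%, for mt-Nd5 7.61% and for mt-Rnr2 1.04%, and it was 0% for mt-Nd1, mt-Nd6, mt-Cytb, mt-Rnr1, mt-Tp and mt-Atp8. mt-Atp8 was thus low without an annotated copy. On chromosome 1 the place between Gm10925 and Gm28661, 24614652 to 24614884, holds 233 bases with no annotated pseudogene. The search covered annotated transcripts alone, so it cannot show whether that place repeats mt-Atp8. How the authors' counting treated reads that match several places is not given in the sources used here, so the levels of these 5 genes, and the parts of mt-Co1 and mt-Nd4 that are shared, are uncertain.

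**Figure D4:**
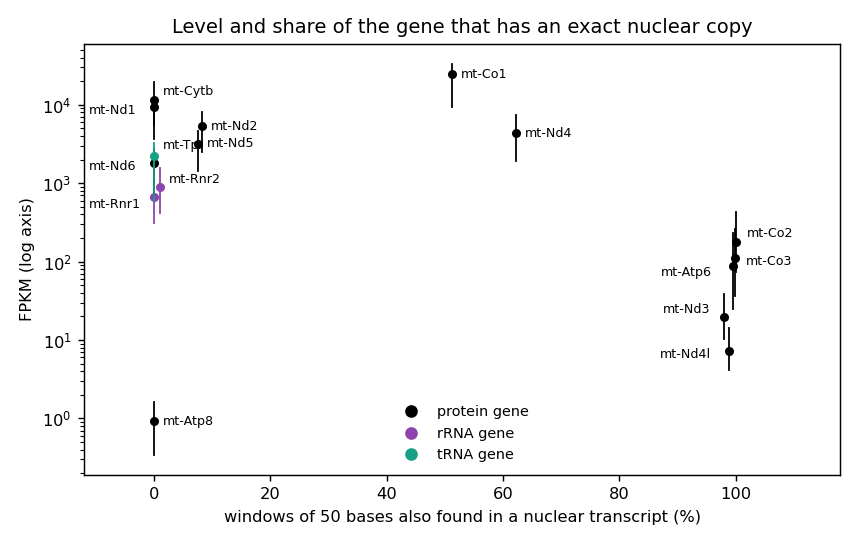
FPKM (log axis) of each gene against the share of its windows of 50 bases that also occur in a nuclear transcript; points are medians over the 6 libraries and lines run from the lowest to the highest library. The 5 genes at 98.0% to 100% lie at 4.10 to 429 FPKM, and mt-Atp8 lies lower, at 0%.

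Values were also listed for the 7 pseudogenes of the copy. In ApoE versus Ctrl 7 of 7 were called higher, beside 19.8% of all genes tested, with log2 fold changes of 1.37 to 2.54. No copy was called in the other comparisons. Gm28437 stood at 39.6 and 44.97 FPKM in Ctrl, 223 and 158 in ApoE, and 141 and 53.2 in CKD, beside mt-Co3, whose sequence it repeats. Of the reads of this pair together, mt-Co3 held 48.2% to 65.2%. For mt-Nd3 and Gm28438 the member's part was 43.3% to 53.2%, for mt-Co2 and Gm28661 53.7% to 63.5%, for mt-Nd4l and Gm10222 29.5% to 52.1%, and for mt-Atp6 and Gm10925 24.1% to 42.9%. Where the copy is partial, its level was far below the member's: Gm29216 stood at 21.6 to 191 FPKM and Gm28439 at 18.4 to 87.7. Reads of a member and of an identical copy cannot be told apart, so the calls of such copies are not independent of the members' calls.

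Some nuclear-encoded subunits of the same complexes also rose in ApoE. Among all genes tested, 19.8% were called higher and 24.3% lower in ApoE versus Ctrl. Of 35 nuclear subunits of complex I tested, 12 rose and none fell, with a median log2 fold change of 0.72, beside 1.47 for the mitochondrial 7. The examples with the smallest adjusted p were Ndufs1 at 0.95, Ndufa1 at 0.93 and Ndufa10 at 1.16 (adjusted p = 0.0215, 0.0225 and 0.0229). Ndufa1, an accessory subunit, stood at 101 and 105 FPKM in Ctrl, 197 and 198 in ApoE, and 174 and 113 in CKD, with CKD between the others. The call of each named subunit of complexes I to V was lost in 3 or 4 of the 6 fits that left out a library (highest adjusted p from 0.0812 for Sdhd to 0.230 for Atp5g2), and with the white adipocyte level as covariate. Complex II, succinate dehydrogenase, has no mitochondrial gene, and 4 of its 4 subunits rose, among them Sdhd by 1.29, Sdhb by 1.34 and Sdha by 1.03 (adjusted p = 0.0119, 0.0306 and 0.0334). Of 9 nuclear subunits of complex III, 4 rose (median 0.98), led by Uqcrq at 1.51, Uqcrfs1 at 1.45 and Cyc1 at 1.19 (adjusted p = 0.0260, 0.0261 and 0.0341).

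Of 14 nuclear subunits of complex IV, 9 rose in ApoE (median 1.02, beside 1.91 for the mitochondrial 3). The shares over all genes tested were again 19.8% higher and 24.3% lower. The subunits with the smallest adjusted p were Cox8b at 2.85, Cox5a at 1.77 and Cox7a1 at 2.53 (adjusted p = 0.0141, 0.0144 and 0.0255). Cox8b and Cox7a1 are isoforms known from heart, muscle and brown fat. Cox8b stood at 23.0 and 69.5 FPKM in Ctrl, 258 and 340 in ApoE, and 227 and 92.3 in CKD, lowest in Ctrl. Of 16 nuclear subunits of complex V, 5 rose (median 0.72), with Atp5f1 at 0.91, Atp5b at 1.02 and Atp5g2 at 0.60 (adjusted p = 0.0266, 0.0395 and 0.0423). The 2 mitochondrial subunits went opposite ways, mt-Atp6 at 2.00 and mt-Atp8, which rests on 1 to 5 reads a library, at -0.31. The difference in size between mitochondrial and nuclear subunits was not tested.

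In CKD versus Ctrl none of the nuclear subunits of complexes I to V was called, and their medians were 0.58, 0.88, 0.83, 0.91 and 0.57 in that order. At an unadjusted p below 0.05 there were 14 of 35, 3 of 4, 4 of 9, 7 of 14 and 5 of 16, beside 29.96% of all genes tested, a share that complex V hardly exceeded. The most abundant subunit of each gave 0.83 for Ndufb9, 0.95 for Sdhd, 0.69 for Uqcr10, 0.54 for Cox6a1 and 0.99 for Atp5b, with adjusted p of 0.168, 0.0852, 0.189, 0.268 and 0.101. In ApoE versus CKD none was called either, with medians of 0.12, 0.22, 0.13, 0.22 and 0.09. There 0 were at an unadjusted p below 0.05, beside 50.1% of all genes tested. The same 5 subunits gave -0.03, 0.34, 0.29, 0.24 and 0.03 there, with adjusted p of 0.948, 0.350, 0.478, 0.542 and 0.9495.

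Of 20 genes for mitochondrial DNA and transcription, 2 rose and 4 fell in ApoE versus Ctrl (median 0.06). Both shares called were below the 19.8% higher and 24.3% lower among all genes tested. Polg, the catalytic subunit of the mitochondrial DNA polymerase, stood at 9.29 and 9.95 FPKM in Ctrl, 4.89 and 4.28 in ApoE, and 10.2 and 8.72 in CKD. Polg was lowest in both ApoE libraries, and fell by 0.93 on the log2 scale against Ctrl (adjusted p = 0.00344) and by 0.90 against CKD (adjusted p = 0.00467). Tk2, the mitochondrial thymidine kinase, and Mgme1, a mitochondrial exonuclease, both rose in ApoE by 0.74 (adjusted p = 0.0127 and 0.0247). Neither rise was called in every fit with a library left out. In CKD versus Ctrl none of the 20 was called, beside 2.23% higher and 3.21% lower among all genes tested. At an unadjusted p below 0.05 there were 8, beside 29.96% of all genes. The most abundant, Tfb2m, gave 0.46 (adjusted p = 0.155). In ApoE versus CKD 3 were higher and 2 lower, beside 18.5% and 21.2% of all genes tested. Among them were Mgme1 at 1.04 and Dguok, a deoxyguanosine kinase, at 0.60 (adjusted p = 0.00923 and 0.0219). Neither of these calls held in every fit with a library left out.

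Of 22 genes for mitochondrial RNA processing and decay, 2 rose and 1 fell in ApoE versus Ctrl (median 0.21), and 16 had a positive fold change. Both shares called were below the 19.8% higher and 24.3% lower among all genes tested. Rexo2, an exonuclease for very short RNAs, fell by 0.88 (adjusted p = 0.0130), while Ptcd2 and Tbrg4 rose by 0.77 and 0.64 (adjusted p = 0.0300 and 0.0346). The calls of Rexo2, Ptcd2 and Tbrg4 did not hold in every fit with a library left out. A single gene was called in CKD versus Ctrl, the pseudouridine synthase gene Rpusd4, whose product modifies mitochondrial RNA. Among all genes tested, 2.23% were called higher and 3.21% lower there. Rpusd4 stood at 6.22 and 5.94 FPKM in Ctrl, 6.87 and 6.38 in ApoE, and 3.04 and 3.66 in CKD. It was lowest in both CKD libraries, with a log2 fold change of -0.71 against Ctrl (adjusted p = 0.0416) and of 0.81 for ApoE versus CKD (adjusted p = 0.00578). The call against Ctrl held in 1 of 6 fits with a library left out (adjusted p up to 0.261), and that between ApoE and CKD in 6 of 6. Mtpap, the mitochondrial poly(A) polymerase, and Trnt1, which adds the CCA end to tRNAs, gave -0.75 and -0.51 in ApoE versus CKD (adjusted p = 0.0284 and 0.0233). Neither call held in every fit with a library left out. In that comparison 1 gene of the list was higher and 3 lower, beside 18.5% and 21.2% of all genes tested. Mtpap stood at 7.30 and 9.12 FPKM in Ctrl, 7.15 and 7.97 in ApoE, and 16.0 and 11.2 in CKD, highest in both CKD libraries.

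Of 77 mitochondrial ribosomal protein genes, 23 rose and 1 fell in ApoE versus Ctrl (median 0.40). Among all genes tested 19.8% were called higher and 24.3% lower. The smallest adjusted p were those of Mrpl36 at 0.75, Mrps33 at 1.10 and Mrpl34 at 1.26 (adjusted p = 0.00704, 0.00986 and 0.00990). None of these calls held in every fit with a library left out. CKD versus Ctrl had 1 call, Mrps18a at 0.74 (adjusted p = 0.0487), and the median was 0.25. That call did not hold in every fit with a library left out. Among all genes tested, 2.23% were called higher and 3.21% lower there. In ApoE versus CKD 9 were higher and 1 lower, with Mrps6 at 1.31, Mrpl36 at 0.91 and Mrpl34 at 1.15 (adjusted p = 0.00235, 0.00440 and 0.0152). Both are lower shares than the 18.5% higher and 21.2% lower among all genes tested. Of 17 mitochondrial tRNA synthetase genes, Fars2 alone rose in ApoE versus Ctrl, by 0.63 (adjusted p = 0.0195). The call of Fars2 did not hold in every fit with a library left out. None of the 17 was called in CKD versus Ctrl. There 1 was at an unadjusted p below 0.05, beside 29.96% of all genes tested. The most abundant, Lars2, varied between 5.50 and 77.5 FPKM within Ctrl (log2 fold change 0.17, adjusted p = 0.928).

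Of 8 regulators of mitochondrial formation tested, 1 was called in each comparison. List medians were 0.23 (ApoE versus Ctrl), 0.19 (CKD versus Ctrl) and -0.22 (ApoE versus CKD). Among all genes tested, 19.8%, 2.23% and 18.5% were called higher in these comparisons, and 24.3%, 3.21% and 21.2% lower. Ppargc1a encodes PGC-1alpha, a coactivator known for driving mitochondrial biogenesis in brown fat, muscle and heart. It stood at 0.419 and 0.832 FPKM in Ctrl, 0.914 and 1.20 in ApoE, and 13.2 and 8.23 in CKD. Both CKD libraries lay far above the other 4, and Ppargc1a rose in CKD by a log2 fold change of 2.83 ± 0.25 against Ctrl (adjusted p = 0.0145), with ApoE versus CKD at -2.48 (adjusted p = 0.00163). The call against Ctrl held in 1 of 6 fits with a library left out, that without CKD 2 (adjusted p up to 0.106), and the call between ApoE and CKD in 6 of 6. The remaining 7 genes of this list were not called in either of those comparisons. In ApoE versus Ctrl Esrra, a nuclear receptor that PGC-1alpha binds, rose by 0.79 (adjusted p = 0.0227). The call of Esrra did not hold in every fit with a library left out. Ppargc1a was highest in CKD, whereas most members had their highest group mean in ApoE.

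Of 12 genes for outer membrane and other mitochondrial proteins, 7 rose and 1 fell in ApoE versus Ctrl (median 0.67). Among all genes tested 19.8% were called higher and 24.3% lower. Vdac2, a channel of the outer membrane, rose by 0.76 (adjusted p = 0.00832). The adenine nucleotide translocases moved apart: Slc25a4, the muscle and heart form, fell by 0.85 on the log2 scale (adjusted p = 0.00834) and Slc25a5, the more widely expressed form, rose by 0.86 (adjusted p = 0.0132). The calls of Vdac2, Slc25a4 and Slc25a5 in ApoE versus Ctrl did not hold in every fit with a library left out, or with the white adipocyte covariate. Slc25a4 stood at 188 and 200 FPKM in Ctrl, 109 and 105 in ApoE, and 157 and 179 in CKD. It was lowest in ApoE, and also differed in ApoE versus CKD, at -0.64 (adjusted p = 0.0236), a call that did not hold in every fit with a library left out. Slc25a5 was the gene of this list called in CKD versus Ctrl, at 1.02 (adjusted p = 0.0410), a call that did not hold in every such fit either. Of all genes tested, 2.23% were called higher and 3.21% lower in that comparison.

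Adipocyte markers also differed between the libraries. The summed FPKM of 10 white adipocyte markers was 430 and 1090 in Ctrl, 3604 and 3620 in ApoE, and 8118 and 2675 in CKD, lowest in Ctrl 1 and highest in CKD 1. As in the mitochondrial share, CKD 1 lay above CKD 2 and Ctrl 2 above Ctrl 1. The orders differed between CKD 1 and ApoE, since CKD 1 had the highest adipocyte sum while its mitochondrial share, 10.7%, lay between those of the ApoE libraries. Of these 10 markers 8 rose in ApoE versus Ctrl, 1 in CKD versus Ctrl and 0 in ApoE versus CKD, and none fell. Among all genes tested, 19.8%, 2.23% and 18.5% were called higher in these comparisons, and 24.3%, 3.21% and 21.2% lower. In ApoE versus CKD 1 marker was at an unadjusted p below 0.05, beside 50.1% of all genes tested. Cfd stood at 247 and 589 FPKM in Ctrl, 1841 and 1960 in ApoE, and 4660 and 1606 in CKD, and Fabp4 at 62.3 to 1035 over the 6 libraries. The sum of 10 brown adipocyte markers was 110 and 277 in Ctrl, 818 and 866 in ApoE, and 1214 and 423 in CKD. Ucp1, the uncoupling protein of brown fat, stood at 26.3 and 77.4 FPKM in Ctrl, 236 and 147 in ApoE, and 539 and 178 in CKD, and Cidea at 38.8 to 345. Of the 8 brown markers tested, 3 rose and 1 fell in ApoE versus Ctrl, and none was called in CKD versus Ctrl. There 4 were at an unadjusted p below 0.05, beside 29.96% of all genes tested. Cox8b and Cox7a1 stand both in this list and among the complex IV subunits. No marker of either list was at 0 in every library. With the white adipocyte level as a covariate in the limma model, 0 of 16 mitochondrial genes were called in ApoE versus Ctrl. The median of the protein genes was then 0.44, and in CKD versus Ctrl it was -0.19. This covariate, the markers' mean log2 level, was 4.17 and 5.38 in Ctrl, 7.20 and 7.23 in ApoE, and 8.08 and 6.41 in CKD. Both Ctrl libraries lay below all others, so in comparisons with Ctrl the fit cannot separate the adipocyte level from the group. The ApoE values lay between those of CKD, and in ApoE versus CKD the median was 0.53 with the covariate and 0.52 without. The part of the adipocyte level in that comparison was not tested.

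**Figure D5:**
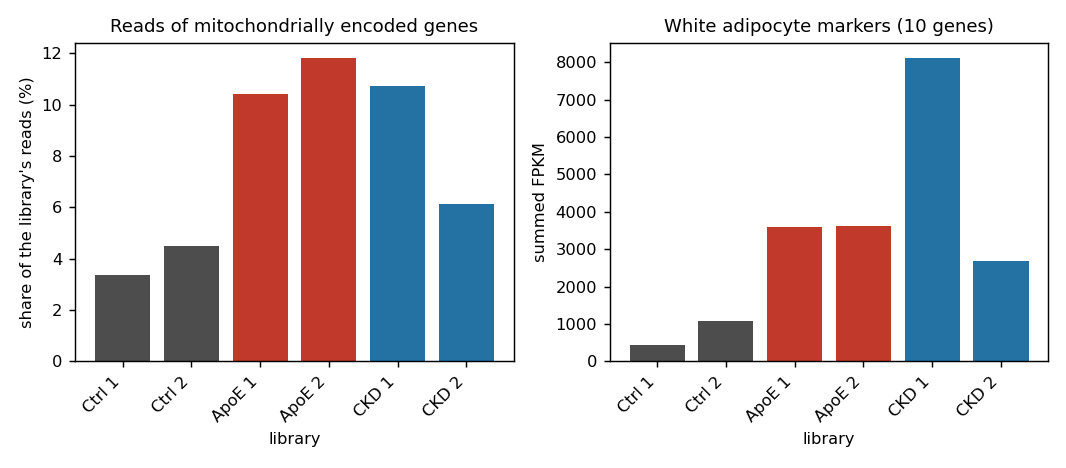
Left, share of each library's reads that came from the 16 mitochondrially encoded genes; right, summed FPKM of 10 white adipocyte markers in the same libraries. Bars are single libraries, coloured by group. Ctrl 1 is lowest in both panels, CKD 1 exceeds CKD 2 in both, and ApoE 2 is highest on the left while CKD 1 is highest on the right.

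Smooth muscle and macrophage markers differed between groups as well. Among all genes tested, 19.8% were called higher and 24.3% lower in ApoE versus Ctrl, and 2.23% and 3.21% in CKD versus Ctrl. The sum of 8 smooth muscle markers, led by Acta2 and Myh11, was 7440 to 8305 FPKM in Ctrl, 563 to 643 in ApoE and 3404 to 5915 in CKD, and 8 of 8 fell in ApoE versus Ctrl and 1 of 8 in CKD versus Ctrl. The sum of 10 macrophage markers, led by Lyz2 and Ctss, was 522 to 580 in Ctrl, 9536 to 14099 in ApoE and 1146 to 1860 in CKD, with 10 of 10 called higher in ApoE and 4 of 10 in CKD. Cardiomyocyte markers, led by Myl7 and Tnnt2, summed to 11.2 in both Ctrl libraries, 12.5 and 12.6 in ApoE, and 31.3 and 38.3 in CKD. Of the 7 tested, 2 rose and 2 fell in ApoE versus Ctrl, both near the shares over all genes, and 3 rose in CKD versus Ctrl. Mesothelial markers, led by Upk3b and Msln, summed to 0.456 to 1.06 in Ctrl, 5.88 to 9.88 in ApoE and 47.4 to 61.1 in CKD, and 4 and 5 of the 5 tested rose against Ctrl.

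Fibroblast markers (led by Dcn and Dpt) summed to 1892 to 2132 FPKM in Ctrl, 720 to 1053 in ApoE and 1013 to 1536 in CKD, with 5 and 1 of 8 called lower against Ctrl. Endothelial markers (Pecam1 and Vwf) summed to 203 to 380 over all libraries, with 3 of 8 called higher and 1 lower in ApoE versus Ctrl. Erythrocyte markers (Hbb-bs and Hba-a1) summed to 161 to 1248, and none of 5 was called against Ctrl. At an unadjusted p below 0.05 there were 0 in ApoE and 1 in CKD, beside 53.6% and 29.96% of all genes tested. Lymphocyte markers (Trbc2 and Ptprc) summed to 3.26 to 56.3, skeletal muscle markers (Myl1 and Tnnt3) to 7.19 to 14.4 and Schwann cell markers (Mbp and Prx) to 6.48 to 9.49. In ApoE versus Ctrl 1 of 6 lymphocyte markers was called higher, 3 of 5 skeletal muscle markers lower, and 1 Schwann cell marker in each direction. In CKD versus Ctrl none of these 3 lists had a call. The shares of all genes called were 19.8% higher and 24.3% lower in ApoE versus Ctrl, and 2.23% and 3.21% in CKD versus Ctrl. The part of these cell types in the levels of the mitochondrial genes was not tested. In comparisons with Ctrl, the fit with the white adipocyte level cannot separate that level from the group.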

How the data were processed

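RNA of 6 aorta libraries, 2 in each of 3 groups named by the labels, was measured. The authors deposited 1 value per Ensembl gene, here taken as FPKM. No label names the unit. Value times exon length is a whole multiple of a step (tolerance 0.05) for about 91.3% of values under 1000 reads in Ctrl 1. This shows reads scaled by length, without fixing the unit. The values of a library summed to 313054 (Ctrl 1) to 398278 (ApoE 2), so they were not scaled to a fixed sum. Library depths and shares of all reads assume FPKM. Bowtie2 2.2.3, HISAT2 2.1.0, TopHat2 and GRCm38 appear in the submitters' processing notes; for the counting tool, the annotation and reads with several matches, no source used here gives the choice. In 5 of the files identifiers and values stood stacked in 1 column, per the files themselves.

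Symbols came from GENCODE M21 (27695 of 27815 identifiers). The 14074 genes that reached 1 FPKM in 2 or more libraries were fitted as log2(FPKM + 1) in limma 3.58.1 (R 4.3.3), as group means over 6 libraries with a variance trend and robust spread, adjusted by Benjamini-Hochberg over all genes tested and called below 0.05. This scale understates changes of low genes. The planned count test was not used because the values are not counts. Reads were recovered as value times exon length over the step. Nuclear copies were found as shared windows of 50 bases between transcripts and aligned with Biopython 1.88. Libraries of a group differed by more than counting noise. The fit was tested on simulated data.

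The members and gene lists were chosen with earlier results of these data known. Every protein and rRNA member is named, and tRNA members that passed the filter. Of each nuclear-encoded list the called genes are named up to 3, those with the smallest adjusted p, or the most abundant where none was called; of each cell type list the 2 most abundant. A gene that this rule selects is not reported here. Alternatives were another pseudocount, no filter, 3 other scalings, the 4 libraries of a comparison alone, each library left out, the replicate number as a block, the white adipocyte level as a covariate, and limma without trend and robust spread.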

Additional observations from a re-analysis of the deposited data

How the results depend on the processing

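Of the 16 genes, the number called in ApoE versus Ctrl was 14, and 9 with no filter, 0 with the white adipocyte level as covariate (median log2 fold change of the protein genes 0.44), and 1 to 15 when a library was left out (median 1.33 to 1.75). In CKD versus Ctrl it was 0, and 0 to 12 with a library left out; the covariate turned the median to -0.19. In ApoE versus CKD it was 1, and 0 with no filter or in the 4 libraries alone, 6 with the covariate, 2 without trend and robust spread, and 0 to 8 with a library left out. Scaling to the summed FPKM moved the difference in mitochondrial share to 13.1 percentage points (ApoE versus Ctrl) and 8.47 (CKD versus Ctrl). The replicate numbers did not pair the libraries: deviations of same-numbered libraries correlated at 0.05 (Ctrl and ApoE), -0.23 (Ctrl and CKD) and -0.10 (ApoE and CKD); with the replicate block the counts were 12, 0 and 1. The cause of these changes was not tested.

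With the covariate, these log2 fold changes turned sign. ApoE versus Ctrl: mt-Rnr2 -0.20, mt-Atp6 -0.33 and Cox7a1 -0.0019. CKD versus Ctrl: mt-Rnr1 -0.64, mt-Rnr2 -0.63, mt-Nd1 -0.10, mt-Nd2 -0.089, mt-Co2 -0.37, mt-Atp6 -0.45, mt-Co3 -0.57, mt-Nd3 -0.19, mt-Nd4 -0.21, mt-Cytb -0.30, Ndufb9 -0.29, Uqcr10 -0.26, Cox6a1 -0.34, Atp5b -0.015, Tfb2m -0.080 and Lars2 -2.62. In ApoE versus CKD, Ndufb9 was 0.018 with median-ratio scaling and Atp5b -0.029 with scaling that left out mitochondrial and the 50 most abundant genes. With a library left out, mt-Nd4l ran from -0.38 to 0.47 and Lars2 from -1.62 to 1.97 in CKD versus Ctrl. In ApoE versus CKD the ranges were -0.030 to 0.87 for mt-Rnr2, -0.083 to 0.82 for mt-Nd1, -0.094 to 0.72 for mt-Co1, -0.17 to 1.35 for mt-Co2, -0.90 to 1.10 for mt-Atp6, -0.46 to 1.56 for mt-Co3, -0.079 to 0.91 for mt-Nd6, -0.020 to 0.93 for mt-Tp, -0.54 to 0.48 for Ndufb9, -0.023 to 0.70 for Sdhd, -0.15 to 0.73 for Uqcr10, -0.16 to 0.65 for Cox6a1 and -0.40 to 0.46 for Atp5b. Of 29 calls of named nuclear genes in ApoE versus Ctrl, 1 (Polg) held in every fit with a library left out, and 1 with the covariate. The 4 in CKD versus Ctrl (Ppargc1a, Rpusd4, Mrps18a and Slc25a5) held in 1 of 6 such fits, that without CKD 2, and 0 with the covariate. In ApoE versus CKD the calls of Polg, Rpusd4, Ppargc1a, Mrps6 and Mrpl36 held in every such fit. Those of Mgme1, Dguok, Trnt1, Mtpap, Mrpl34 and Slc25a4 did not. A group reduced to 1 library was assumed to vary like the others. Low read counts limit what can be said of mt-Atp8 (1 to 5 reads), mt-Nd4l (18 to 62) and mt-Nd3 (58 to 206).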
